A study of Mus musculus with 4 samples.

Results

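The genes described are those of MHC class II peptide presentation, measured on 4 Affymetrix arrays of mouse colon. They were chosen by name, from a list of 10: the classical chains H2-Aa, H2-Ab1 and H2-Eb1, the peptide editors H2-DMa, H2-DMb1 and H2-DMb2, the editor's inhibitors H2-Oa and H2-Ob, the invariant chain Cd74 and the transactivator Ciita. Of these, 9 had a probe set annotated to exactly 1 gene, out of 22180 genes named on the arrays, and each of the 9 had a single such probe set. The probe set that carries the symbol of Cd74 is also annotated to a microRNA gene, so no value is given for Cd74. H2-Oa is also named on a probe set shared with another gene, which was not used.

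The mice were of C57BL/6 background and 3 months old, and every mouse had the ApcF/+ genotype together with an element labelled CDX2. Apc is the tumour suppressor that restrains Wnt signalling in the colon, and F is the usual sign for an allele flanked by loxP sites. CDX2 is not explained in the labels, nor is the promoter or cell type that drives deletion. The groups were Dmt1+/+, which is wild-type, and Dmt1F/F, each sampled as normal colon and as colon tumour, with 1 array for each of the 4 combinations. For the animals, the design text gives 7 of Dmt1+/+ and 4 of Dmt1F/F genotype, without saying how they map to an array or whether their RNA was pooled. No group had a replicate, so a difference between 2 arrays has no replicate check, and precision is limited by their number.

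MHC class II molecules display peptides from taken-up material to CD4 T cells. An alpha and a beta chain pair in the endoplasmic reticulum around the invariant chain, H2-DM exchanges the leftover invariant chain peptide for antigen in endosomes, and H2-DO, the product of H2-Oa and H2-Ob, restrains H2-DM. Ciita is the coactivator that switches on class II genes such as the classical chains, at promoters carrying the X and Y boxes. B cells, dendritic cells and macrophages make class II constantly, H2-DO is best known from B cells, and gut epithelium makes class II when exposed to interferon gamma. C57BL/6 mice have H2-Eb1 but a defective H2-Ea gene, so the E beta chain lacks its usual partner at the cell surface.

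The promoter stretches below are shown because the genes carrying these boxes did not all follow one pattern on the arrays. They are from RefSeq, mouse assembly GRCm38.p6, and the array files name no build. Promoter windows of 300 bases, 250 before and 50 after the gene start, were listed for 7 of the 10 genes, in 8 windows. Each stretch has 63 bases on the gene's own strand and is placed on its Y box core, with the Y core ATTGG in capitals and, where it was found 28 to 43 bases upstream on the same strand, the X box core AGNNAC also in capitals. The 6 stretches shown are those whose Y core ended 38 to 85 bases before the gene start. H2-DMa, which has 2 windows, also had a Y core in 1 of them, ending 193 bases before the gene start with no X core paired to it, and that stretch is not shown.
H2-Aa, chr17:34287855-34287917, minus strand: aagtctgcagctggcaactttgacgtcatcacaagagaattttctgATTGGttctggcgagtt
H2-Eb1, chr17:34305762-34305824, plus strand: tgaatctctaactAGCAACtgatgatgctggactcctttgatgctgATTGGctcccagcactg
H2-DMb1, chr17:34153084-34153146, plus strand: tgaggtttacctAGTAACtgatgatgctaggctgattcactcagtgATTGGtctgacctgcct
H2-DMb2, chr17:34145113-34145175, plus strand: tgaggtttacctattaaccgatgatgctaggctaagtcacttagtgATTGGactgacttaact
H2-Oa, chr17:34092290-34092352, plus strand: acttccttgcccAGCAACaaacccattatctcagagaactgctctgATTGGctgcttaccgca
H2-Ob, chr17:34238802-34238864, plus strand: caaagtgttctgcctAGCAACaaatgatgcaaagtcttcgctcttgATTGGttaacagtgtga

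Searched as exact letters on both strands, the X and Y pair was in promoter windows of 4 of the 7 class II genes. These were H2-Eb1, H2-DMb1, H2-Oa and H2-Ob, and the pair was in 3.25% of the 27025 genes of the table. At the place where H2-DMb1 has its X core, H2-Aa has ggcaac and H2-DMb2 has attaac, which come near the pattern without matching it. A gene without a counted pair may therefore still carry an X box. The Y core alone was in 37.4% of all windows and the X core alone in 90.4%, so only the pair is a rare arrangement of letters. On the genes' own strand the paired X and Y cores began 31 to 34 bases apart. H2-DMb1 and H2-DMb2, neighbours on chromosome 17, shared 54 of the 63 bases, and H2-Oa and H2-Ob 19. These matches describe letters in a window and no binding was measured.

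Values are log2 signals, so 1 unit is 2-fold, and levels of different genes are not compared because each probe set has its own response. A log2 signal of 4.67, the median level over all genes, stands in for background, and the 12060 genes that reached it on at least 1 array were kept for counts over all genes. Of the 9 class II genes 8 were kept. H2-Oa stayed below this level on all 4 arrays, so the size of its differences is uncertain, and H2-Ob was kept only through the Dmt1F/F tumour, where it was highest. Where the lower of 2 values is below the background level, the printed difference is that of the measured signals. Its true size is uncertain. A lower bound, written below as at least, counts the lower value as 4.67. This bound makes no allowance for error between arrays.

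The classical chains differed little. H2-Aa was at 9.40 in Dmt1+/+ normal colon, 8.74 in Dmt1F/F normal colon, 8.93 in Dmt1+/+ tumour and 9.18 in Dmt1F/F tumour. H2-Ab1, its partner beta chain, was at 10.06, 9.57, 9.56 and 9.77 in the same order. H2-Eb1 was at 8.95, 8.40, 8.50 and 8.66. For each of these genes Dmt1+/+ normal colon was the highest of the arrays, and the span from lowest to highest was between 0.50 and 0.67.

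The H2-DM alpha chain and the first beta chain had a like span. H2-DMa was at 6.73 in Dmt1+/+ normal colon, 6.56 in Dmt1F/F normal colon, 6.07 in Dmt1+/+ tumour and 6.51 in Dmt1F/F tumour. H2-DMb1 was at 5.33, 5.10, 4.66 and 4.89, and in the Dmt1+/+ tumour it lay just below the background level. In both, Dmt1+/+ normal colon was highest and Dmt1+/+ tumour lowest.

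H2-DMb2, the second beta chain gene, behaved differently from these in 1 array. It was at 4.98 in Dmt1+/+ normal colon, 4.66 in Dmt1F/F normal colon, 4.70 in Dmt1+/+ tumour and 6.89 in Dmt1F/F tumour. The Dmt1F/F tumour stood 1.91 above the next highest array, while the other 3 arrays spanned 0.32. The coding genes H2-DMb1 and H2-DMb2 are close relatives and a probe set of one may pick up transcripts of the other, so these values are uncertain as to the member.

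The H2-DO genes had the Dmt1F/F tumour as their highest array too. H2-Oa was at 3.62 in Dmt1+/+ normal colon, 3.30 in Dmt1F/F normal colon, 3.26 in Dmt1+/+ tumour and 4.53 in Dmt1F/F tumour. H2-Ob was at 4.30, 4.27, 4.24 and 5.32. The Dmt1F/F tumour was 0.91 above the next array for H2-Oa and 1.01 above it for H2-Ob, and the other arrays spanned 0.36 and 0.06.

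Ciita had the narrowest span of all. It was at 6.37 in Dmt1+/+ normal colon, 6.34 in Dmt1F/F normal colon, 6.20 in Dmt1+/+ tumour and 6.49 in Dmt1F/F tumour, a range of 0.28. Its highest array was again the Dmt1F/F tumour, but by 0.12.

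**Figure D1:**
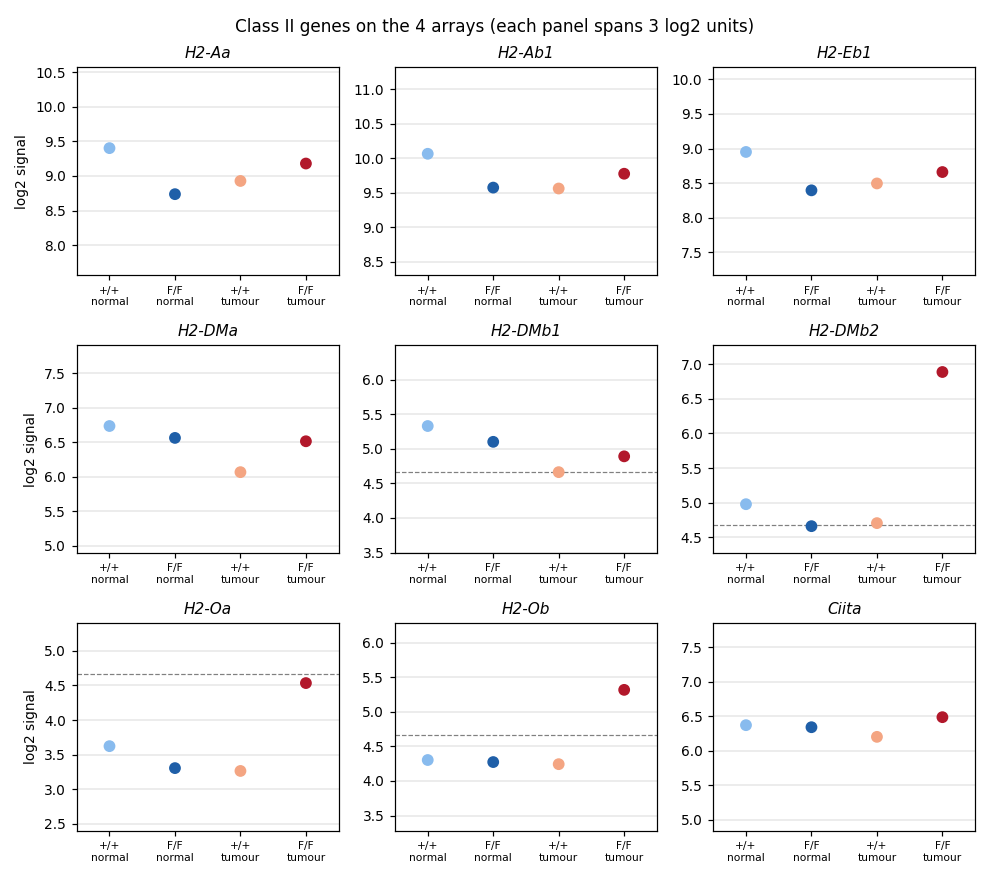
Log2 signal of the 9 class II genes with a value, 1 point for each array; each panel spans 3 log2 units around its own gene, and the dashed line marks the background level of 4.67. H2-DMb2, H2-Oa and H2-Ob stand out in the Dmt1F/F tumour, and the other genes keep within 0.67 across the arrays.

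Tumour was first set against normal colon in Dmt1+/+ mice. All 9 class II genes were lower in the tumour, by -0.06 for H2-Ob to -0.67 for H2-DMa and H2-DMb1, with a median of -0.46. Over all kept genes 43.3% were lower and the median difference was 0.08. None of the 9 reached a 2-fold difference, where 6.56% of kept genes were higher and 5.31% lower by that much, and between 10.6% and 38.2% of kept genes were as low as the single class II genes. In bulk tissue, fewer cells of a type and less RNA per cell cannot be told apart.

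In Dmt1F/F mice 7 of the 9 were higher in tumour and H2-DMa (-0.05) and H2-DMb1 (-0.21) lower, with a median of 0.26 against 0.04 for all kept genes. H2-DMb2 was higher by 2.23, H2-Oa by 1.23 and H2-Ob by 1.04. All 3 were below the background level in Dmt1F/F normal colon, so that counted from this level H2-DMb2 was at least 4.66-fold and H2-Ob at least 1.57-fold higher, and H2-Oa, below it in both tissues, has no bound. By measured signal these 3 were the only ones of the 9 beyond 2-fold. Of kept genes 5.98% were higher and 3.81% lower by that much, but H2-Oa was not kept. H2-Ob was kept only through the Dmt1F/F tumour, so it had to be highest there. H2-Ob fell short of 2-fold after quantile normalization (0.92), median centring (0.97) and cyclic loess (0.99). H2-Aa (0.44), H2-Eb1 (0.26), H2-Ab1 (0.20) and Ciita (0.15) were higher by less.

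The genotypes were then compared within each tissue, to describe what accompanies Dmt1F/F. In normal colon all 9 genes had the lower value in Dmt1F/F, from -0.67 for H2-Aa, -0.56 for H2-Eb1 and -0.49 for H2-Ab1 to -0.03 for H2-Ob and Ciita. The direction of H2-Ob turned after quantile normalization, cyclic loess and median centring, and that of Ciita after median centring. The median was -0.32 against 0.04 for all kept genes, 43.6% of which were lower. None passed 2-fold, as did 0.713% of kept genes upward and 0.904% downward, and 3.02% of kept genes were as low as H2-Aa. The lower values were not particular to class II. Medians over measured markers were also lower in Dmt1F/F normal colon for plasma cells (-0.75), B cells (-0.48), all leukocytes (-0.47), neutrophils (-0.44) and macrophages (-0.36). Medians of the group 3 innate lymphoid (0.19) and epithelial lists (0.04) were higher. This comparison and the Dmt1+/+ tumour comparison share the Dmt1+/+ normal array, which was the highest for 5 of the 9 genes.

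In tumours all 9 genes had the higher value in Dmt1F/F, where 46.2% of kept genes did, with a median of 0.28 against -0.02. H2-DMb2 was higher by 2.19 (4.55-fold), a difference that 0.0995% of kept genes equalled or passed. H2-Oa was higher by 1.27, with both tumours below the background level, and H2-Ob by 1.08, which is at least 1.57-fold because it was below that level in the Dmt1+/+ tumour. By measured signal the 3 genes were beyond 2-fold upward. Of kept genes 1.7% were beyond 2-fold upward and 0.506% downward. These shares leave out H2-Oa, which was not kept, and H2-Ob, kept only through the Dmt1F/F tumour, had to be higher there. The other 6 differed by 0.16 (H2-Eb1) to 0.45 (H2-DMa). The Dmt1F/F tumour array enters both this comparison and that of tumour with normal colon in Dmt1F/F mice, so the high values of these 3 genes in it are counted in both.

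**Figure D2:**
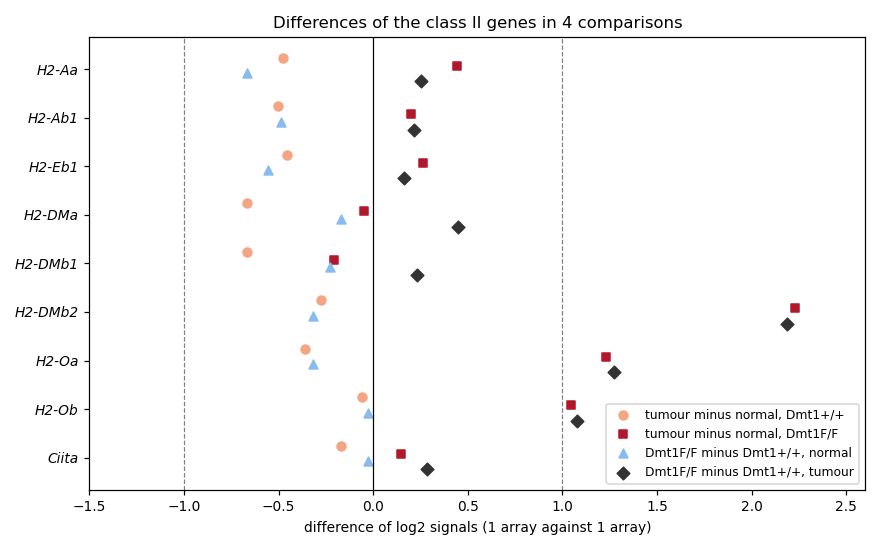
Differences of log2 signals for the 9 class II genes, each point 1 array against 1 array; dashed lines mark 2-fold. By measured signal H2-DMb2, H2-Oa and H2-Ob pass 2-fold in both comparisons that contain the Dmt1F/F tumour and in neither of the others, and the remaining genes stay between -0.67 and 0.45.

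One model over the 4 arrays, limma with tissue and genotype as additive terms, has a single residual degree of freedom, which is the difference of the tissue effect between genotypes. It called 11% of kept genes as higher and 8.23% as lower in tumour, and none of the 8 class II genes in it. H2-DMb1 had the smallest adjusted p for tissue, with a fitted difference of -0.44 (SE 0.20, limma adjusted p = 0.188, lower in both tumours). H2-DMb2 had a fitted tissue difference of 0.98 (SE 0.62, limma adjusted p = 0.304), higher in tumour in 1 of the 2 genotypes. For genotype the model called 0% of kept genes in either direction, though 589 were higher and 402 lower at an unadjusted p below 0.05. No class II gene reached an unadjusted p below 0.05 for either term. The difference of the tissue effect between genotypes is the residual itself and has no test here. A gene whose tissue effect is unlike in the genotypes, as in H2-DMb2, gets a large SE from this residual. That such a gene was not called therefore says little about it.

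The rest of the class II pathway was read from lists. Beside the limma calls of list genes stand the shares over all kept genes, 11% higher and 8.23% lower in tumour. Of the 7 factors that assemble on the X and Y boxes, none passed 2-fold in any of the 4 comparisons, and 1 rose in tumour by limma: Creb1, a CREB family factor, by 0.53 (SE 0.12, limma adjusted p = 0.0459). Rfx5, the DNA-binding RFX subunit, was at 6.24 in both normal arrays, 6.73 in Dmt1+/+ tumour and 6.61 in Dmt1F/F tumour. Among 8 measured genes from interferon gamma to Ciita none passed 2-fold and none was called. The largest difference was that of the receptor chain Ifngr1, -0.63 in Dmt1+/+ tumour against normal colon, and Ifng itself was below the background level on every array, between 3.68 and 3.92.

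Of 5 regulators of Ciita in B and myeloid cells, none was called, and 1 passed 2-fold: the interferon regulatory factor Irf8, lower by -1.26 in Dmt1+/+ tumour. Irf4, its B cell and plasma cell relative, was at 5.26, 4.73, 4.80 and 5.71 in Dmt1+/+ normal colon, Dmt1F/F normal colon, Dmt1+/+ tumour and Dmt1F/F tumour, so its highest array was also the Dmt1F/F tumour. Of 9 endosomal processing genes 1 rose in tumour, the cathepsin Ctsh, by 1.05 (SE 0.13, limma adjusted p = 0.0186), and it was the only one beyond 2-fold, by 1.20 in Dmt1F/F tumour against normal colon. Cathepsin S, Ctss, which trims the invariant chain, was at 10.12, 10.15, 9.71 and 9.89. The thiol reductase Ifi30, which opens disulfide bonds of antigens, was higher in Dmt1F/F than in Dmt1+/+ tumour by 0.68. Of the 3 genes of surface turnover, Cd83, which keeps class II at the surface, was at 3.49 in Dmt1+/+ and 4.63 in Dmt1F/F tumour and reached the background level on no array.

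Class I presentation served as the neighbouring pathway. Of its 11 measured genes none passed 2-fold between genotypes in either tissue, and the median was -0.02 between tumours and -0.23 between normal colons. By limma 2 fell in tumour and none rose: H2-T23, a nonclassical class I chain, by 0.97 (SE 0.12, limma adjusted p = 0.0178) and the immunoproteasome subunit Psmb10 by 0.62 (SE 0.12, limma adjusted p = 0.0366). Nlrc5, the class I counterpart of Ciita, was lower in Dmt1F/F normal colon by -0.92. Of 7 costimulatory and inhibitory ligands, Cd80 rose in tumour by 1.23 (SE 0.18, limma adjusted p = 0.0231), and none passed 2-fold between genotypes. On the T cell side, Cd4 was at 5.68 in the Dmt1F/F tumour and below the background level on the other 3 arrays, between 4.44 and 4.53, so it was kept only through that tumour and was at least 2.02-fold higher there than in the Dmt1+/+ tumour. The T cell receptor subunit Cd3e was higher in Dmt1F/F than in Dmt1+/+ by 0.71 in tumour and by 0.76 in normal colon. Its highest array was Dmt1F/F normal colon, at 6.03. Between tumours Cd3g differed by -0.17. Cd3g fell in tumour (limma adjusted p = 0.0274), by 0.81 in Dmt1+/+ and 1.19 in Dmt1F/F mice, and was the only called gene of the 5 kept there, while Cd28 was above the background level in Dmt1+/+ normal colon alone, at 4.74.

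Markers of cell types that make class II were placed beside these values. All 11 measured B cell genes were highest in the Dmt1F/F tumour, where 10 reached the background level, against 4, 2 and 2 in Dmt1+/+ normal colon, Dmt1F/F normal colon and Dmt1+/+ tumour. Ms4a1, which encodes CD20, was at 5.01, 4.32, 4.20 and 6.85 in Dmt1+/+ normal colon, Dmt1F/F normal colon, Dmt1+/+ tumour and Dmt1F/F tumour. The complement receptor Cr2 was at 3.92, 3.44, 3.80 and 6.13. Between tumours 8 of the 11 were beyond 2-fold higher in Dmt1F/F: Ms4a1 by 2.65, Cr2 and Bank1 by 2.33, Cd79a by 1.77, Blk by 1.69, Pax5 by 1.58, Cd22 by 1.55 and Fcer2a by 1.22. Of kept genes 1.7% were higher and 0.506% lower by that much, and Fcer2a was not kept. The summed linear signal of the 11 B cell genes was 286, 198, 241 and 833 in the same order of arrays. Counted from the background level, Ms4a1, Cr2, Bank1, Cd79a and Cd22 stay beyond 2-fold, Blk and Pax5 do not, and Fcer2a was below it in both tumours. The 6 kept B cell genes that reached the background level only in the Dmt1F/F tumour had to differ. What the B cell signal contributes to H2-DMb2, H2-Oa and H2-Ob was not tested.

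All 5 measured follicle genes and 2 of 3 leukocyte genes were highest in the same array. Cxcl13, the chemokine that draws B cells into follicles, was at 9.26, 8.33, 8.66 and 10.14 in Dmt1+/+ normal colon, Dmt1F/F normal colon, Dmt1+/+ tumour and Dmt1F/F tumour. Ptprc, which encodes CD45 on all leukocytes, was at 7.61, 7.17, 7.33 and 8.42. The summed linear signal of the 5 measured follicle genes was 680, 382, 476 and 1224, but Cxcl13 alone made 83.9% to 92.4% of it, so the sum mostly repeats that probe set. That of the 3 leukocyte genes was 273, 200, 242 and 460, of which Ptprc made 66.4% to 74.6%. Of the follicle genes only Cxcl13 and Ltb reached the background level, and Lta, Madcam1 and Glycam1 did not on any array.

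The macrophage, dendritic cell, plasma cell and innate lymphoid lists had no such peak in the Dmt1F/F tumour. Macrophage genes had a median difference of -0.11 between tumours, none of 12 passed 2-fold there, and their summed signal was 887, 792, 1030 and 1007 in Dmt1+/+ normal colon, Dmt1F/F normal colon, Dmt1+/+ tumour and Dmt1F/F tumour. In tumour 3 macrophage genes rose, among them Cd68 by 1.04 (SE 0.13, limma adjusted p = 0.0182), and Mertk fell by 1.60 (SE 0.16, limma adjusted p = 0.0124). Within Dmt1F/F mice Msr1 (1.31), C1qb (1.11), Csf1r (1.04) and Cx3cr1 (1.02) were beyond 2-fold higher in tumour than in normal colon. Of 7 measured conventional dendritic cell genes none passed 2-fold between tumours, with a summed signal of 245, 219, 239 and 233, and Flt3, Zbtb46 and Xcr1 stayed below the background level. The integrin Itgax rose in tumour by 1.04 (SE 0.23, limma adjusted p = 0.0477), from values below the background level in both normal arrays. None of 6 plasma cell genes passed 2-fold between tumours, with Jchain, the joining chain of secreted antibody, at 10.01 and 10.11, and Derl3 was at 4.80 in Dmt1+/+ normal colon and at 3.79, below the background level, in Dmt1F/F normal colon. Of the plasmacytoid list Tcf4 rose in tumour by 1.74 (SE 0.14, limma adjusted p = 0.00888) and Ly6d by 1.03, while Siglech, its defining marker, was below the background level on every array. Group 3 innate lymphoid genes reached that level nowhere (0 of 3 measured).

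Of 6 neutrophil genes, 5 had the lower value in the Dmt1F/F tumour, as had 53.8% of kept genes. S100a8, S100a9, Cxcr2 and Csf3r reached the background level only in the Dmt1+/+ tumour, through which they were kept, so they had to differ; S100a8, a calprotectin subunit, was at 6.24 there and at 4.34 in the Dmt1F/F tumour, at least 2.96-fold lower. Retnlg was above that level in both tumours and lower in Dmt1F/F by -1.30, and Ly6g was higher by 0.83. All 7 epithelial genes were above the background level on every array, and 3 of them fell in tumour by limma. These were Cdx2, the intestinal homeobox factor, by 2.33 (SE 0.16, limma adjusted p = 0.00715), the keratin Krt20 (limma adjusted p = 0.0469), by 1.42 in Dmt1+/+ and 0.58 in Dmt1F/F mice, and Vil1, which encodes villin, by 0.65 (SE 0.12, limma adjusted p = 0.0318), each lower in both genotypes. Epcam stayed between 10.88 and 10.99. Between tumours the list had a median of 0.05: Cdx2 (1.39), Krt20 (0.85), Vil1 (0.51) and Krt8 (0.05) were higher in Dmt1F/F, and Krt18 (-0.29), Epcam (-0.04) and Cdh1 (-0.04) lower. Cdx2 was also higher in Dmt1F/F normal colon, by 0.92.

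**Figure D3:**
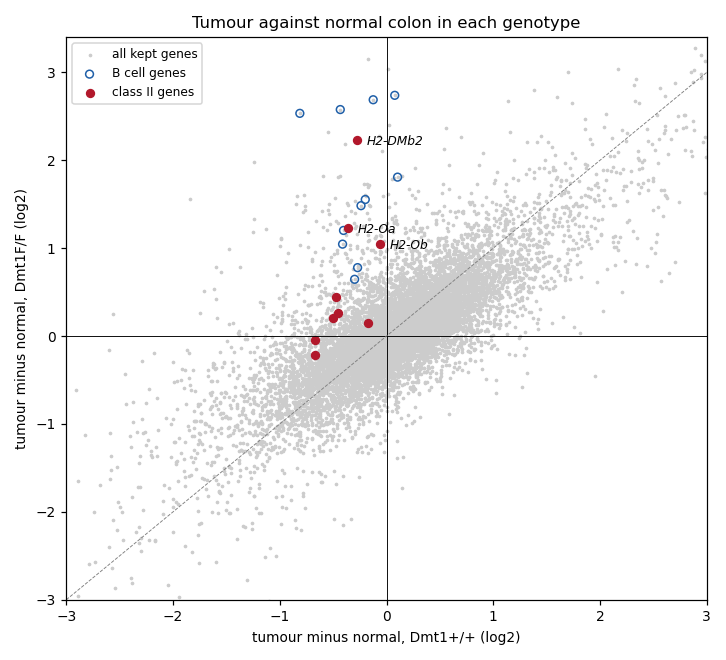
Tumour minus normal colon in Dmt1+/+ (horizontal) and Dmt1F/F mice (vertical), in log2, for the 12060 kept genes (grey, 102 of them beyond the axes), the 9 class II genes (red) and the 11 measured B cell genes (open circles); the dashed line marks equal differences. H2-DMb2, H2-Oa and H2-Ob lie among the B cell genes, above the line, and the other class II genes lie nearer to it.

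**Figure D4:**
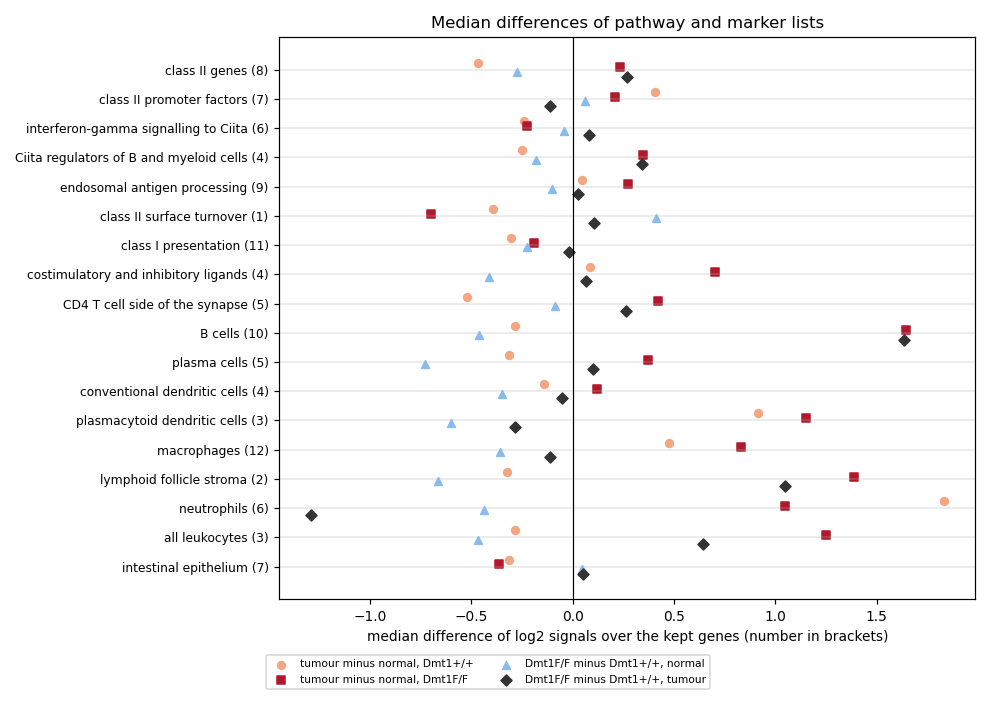
Median difference of log2 signals of each gene list over its kept genes, whose number is in brackets, in 4 comparisons of 1 array with 1 array. The B cell list is at 1.65 for Dmt1F/F tumour against normal colon and 1.63 for Dmt1F/F against Dmt1+/+ tumour, where the class II genes are at 0.23 and 0.27. Of the 10 kept B cell genes 6, and of the 8 kept class II genes 1, reached the background level only in the Dmt1F/F tumour. These genes had to be higher there, so the B cell medians are in part set by the filter.

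Likeness was measured as the root mean square distance over the 4 arrays between genes' deviations from their own mean. The kept genes nearest to the median pattern of the 8 kept class II genes were Pdzk1ip1, Kcnj10, Vmn2r55, Slc25a47, Zeb1 and Esrrg, at distances of 0.035 to 0.046, with Dmt1+/+ normal colon highest in each. For the 3 genes beyond 2-fold the same search was added after their values were seen. The nearest genes to H2-DMb2 were Bank1 (0.15), Cr2 (0.17), Btla (0.20), Tnfrsf13c (0.21), Fcrl1 (0.21) and Ms4a1 (0.22), of which Bank1, Cr2 and Ms4a1 are on the B cell list and Tnfrsf13c is the BAFF receptor of B cells. Ptprc was nearest to H2-Oa (0.079) and the kinase gene Map4k1 to H2-Ob (0.034), with Cd4 also among the 6 nearest to H2-Ob (0.073). The 3 genes were searched because they peak in the Dmt1F/F tumour, so genes near them had to peak there too. Some of these neighbours, among them Cr2 and Cd4, were kept only through that tumour, as was H2-Ob. H2-Oa was below the background level on every array. With 4 arrays such distances are a description of these arrays, and a cell source was not tested.

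The targeted gene, Slc11a2, which encodes the iron importer DMT1, was at 6.51 in Dmt1+/+ and 6.13 in Dmt1F/F normal colon and at 6.64 in Dmt1+/+ and 6.19 in Dmt1F/F tumour, lower in both Dmt1F/F arrays. The medians of all probe sets ranged from 4.27 to 4.34 over the arrays.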

How the data were processed

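The values are log2 signals, 1 for each of 41345 probe sets and 4 arrays, as deposited by the authors. The submitters' processing notes name RMA and the oligo package, without versions. Per the labels' protocols, 400 ng of Trizol-extracted RNA were labelled. RMA forces the arrays to a common distribution before probe sets are summarized, and it gives no detection call. The probe set medians of the arrays still ranged from 4.27 to 4.34. Probe sets with 1 gene (23521) were named from the platform annotation; 23328 matched RefSeq by gene ID. Where a gene had several, the one of highest mean was used.

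The class II genes, the pathway and marker lists and the tests were chosen with earlier results of these data known. List genes were to be named if beyond 2-fold or largest; not all are, and key genes, and the lower bounds counted from the background level, were added after their values were seen. limma (version 3.58.1, R 4.3.3) was run with trended eBayes and Benjamini-Hochberg adjustment over 12060 genes at 0.05, with a prior of 3.40 degrees of freedom, and was tested on simulated data. The labels do not say whether tumour and normal pieces share animals. Alternatives were quantile normalization, median centring, cyclic loess, the mean of probe sets, no filter, no trend and each term alone. 0 columns belonged to other samples.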

Additional observations from a re-analysis of the deposited data

Results flagged for a closer look

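For 7 of the 9 class II genes the difference between tumour and normal colon had opposite signs in the genotypes, lower in Dmt1+/+ and higher in Dmt1F/F, as it had for 9.18% of kept genes, while 12.6% had the opposite pattern, higher in Dmt1+/+ and lower in Dmt1F/F, and no class II gene did. The Dmt1F/F difference exceeded the Dmt1+/+ one by 2.50 for H2-DMb2, 1.59 for H2-Oa, 1.10 for H2-Ob, 0.92 for H2-Aa, 0.72 for H2-Eb1, 0.70 for H2-Ab1 and 0.31 for Ciita. With 1 array a group this difference was not tested. Of kept genes, 2.87% had an excess of 1 or more, but H2-Oa was not kept and H2-Ob was kept only through the Dmt1F/F tumour.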

How the results depend on the processing

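For Dmt1F/F tumour against normal colon, the number of kept class II genes higher by 2-fold was 1 and not 2 after quantile normalization, median centring and cyclic loess, because H2-Ob came to 0.92, 0.97 and 0.99. Of the other 85 recomputed summaries, the 20 medians moved by less than the residual spread of the model, 63 counts were equal to those reported and 2 changed: without the filter, over 9 genes, H2-Oa made the count higher by 2-fold 3 and not 2 in that comparison and in Dmt1F/F against Dmt1+/+ tumour. The 292 recomputed values of single genes moved by less than that spread or kept their side of the limma threshold. Part of this was fixed in advance. Each class II gene had a single probe set, so the mean of probe sets and no filter could not change its differences between arrays. The mean of probe sets could change their counts and medians only through the filter. For H2-DMb2 the spread was 0.62, widened by its own unlike tissue effects, so it is a lenient limit. Among differences between 2 arrays, signs turned only in normal colon between genotypes, for H2-Ob and Ciita as given above. Under the 7 alternatives run, the lowest limma adjusted p of any class II gene was 0.111 for tissue and 0.638 for genotype. No paired analysis was possible because each group has 1 array and the labels carry no replicate numbers; leaving an array out leaves the model no residual.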

Other observations

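H2-Eb2, another class II beta chain gene that was not on the list and was looked up after the values were seen, was at 4.03 in Dmt1+/+ normal colon, 3.23 in Dmt1F/F normal colon, 3.96 in Dmt1+/+ tumour and 5.50 in Dmt1F/F tumour. Its Dmt1F/F tumour value is therefore also the highest, by 1.54 over the Dmt1+/+ tumour, and the only one above the background level. H2-Ea was between 2.73 and 3.11 on all 4 arrays.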
